A study of Mus musculus with 20 samples.

Results

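Endothelial cells line the blood vessels, and 10 genes that mark them were followed through mouse mammary tumours sorted by CD45, a surface protein of leukocytes. The genes were Cdh5, Pecam1, Tek, Tie1, Emcn, Egfl7, Esam, Cldn5, Eng and Vwf. They were chosen for what they are known to do, but with earlier results of these data known. Matching by symbol to the Ensembl identifiers of the deposited table found all 10 of them among 52783 genes. The tumours were grown from 66cl4 cells, which form metastatic tumours, or 67NR cells, which form tumours that do not metastasise, both being lines of the 4T1 mammary carcinoma model. Female BALB/cJ mice, 8 to 12 weeks old when purchased and immunocompetent, received 1000000 cells in the mammary fat pad, and tumours were taken 21 to 26 days later. Each of 10 mice, 5 per line, gave a library of CD45+ (immune) and a library of CD45- (non-immune) cells, so that the 4 groups (66cl4 CD45-, 67NR CD45-, 66cl4 CD45+ and 67NR CD45+) had 5 libraries each. No gate selected endothelial cells: the CD45- gate held cancer cells together with vessel cells and fibroblasts, and no drug or allele differed between the groups.

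In the vessel wall, VE-cadherin (Cdh5), claudin 5 (Cldn5), the adhesion molecule Esam and PECAM-1 (Pecam1) hold endothelial cells to each other. Tek, also called Tie2, is the receptor for angiopoietins, and Tie1 is its partner, while endoglin (Eng) is a co-receptor for BMP9 and TGF-beta. Endomucin (Emcn) is a sialomucin of capillary and venous endothelium, Egfl7 is secreted into the vessel matrix, and von Willebrand factor (Vwf) is stored in endothelial cells and platelets for haemostasis. PECAM-1 and endoglin also occur on leukocytes, and in bulk RNA fewer cells of a type and less RNA per cell cannot be told apart.

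Promoter sequences were read from RefSeq windows of 250 bases before to 50 bases after an annotated start (build GRCm38.p6), which were found for 6 members, Tek, Tie1, Emcn, Egfl7, Cldn5 and Eng, but not for Cdh5, Pecam1, Esam and Vwf. Each was searched on both strands for AGGAAG, a core of sites bound by ETS factors, the family of Erg and Fli1. These letters stood in windows of Tie1, Emcn, Egfl7 and Eng but not in those of Tek and Cldn5. By window this was 5 of 8, since Egfl7 has more than 1 window, against 35.4% of all 32851 windows of the same length. A match thus describes the sequence and shows no binding. The longer CAGGAAG, which overlaps AGGAAG, was found for Emcn and Egfl7 (3 of 8 member windows) and in 13.3% of all windows. Of the letters bound by zinc finger factors such as Gata2, AGATAA was found for Tek (1 of 8 member windows, 11.2% of all windows). The variant TGATAA was found for Emcn and Egfl7 (2 of 8, 9.05%). The letters ACAAAG, of the kind bound by Sox factors, were found for Tek, Egfl7 and Eng (3 of 8, 18.7%). In CD45- cells the log2 fold changes of 66cl4 over 67NR were -3.18 for Tek and -2.51 for Cldn5, without AGGAAG. They were -3.38 for Tie1, -2.07 for Emcn, -3.42 for Egfl7 and -1.10 for Eng, with it. Sequences of a receptor, a surface mucin and a matrix gene are printed on the gene's own strand, with AGGAAG or its reverse complement in capitals. They are Tie1 at chr4:118489800-118490099 (minus strand), Emcn at chr3:137340828-137341127 (plus strand) and Egfl7 at chr2:26583615-26583914 (plus strand, one of its annotated starts).
Tie1: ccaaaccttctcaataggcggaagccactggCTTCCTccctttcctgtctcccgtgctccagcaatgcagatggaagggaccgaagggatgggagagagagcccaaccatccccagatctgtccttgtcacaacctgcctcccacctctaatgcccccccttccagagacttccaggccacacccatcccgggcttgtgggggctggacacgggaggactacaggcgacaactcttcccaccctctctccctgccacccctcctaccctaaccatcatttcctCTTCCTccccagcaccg
Emcn: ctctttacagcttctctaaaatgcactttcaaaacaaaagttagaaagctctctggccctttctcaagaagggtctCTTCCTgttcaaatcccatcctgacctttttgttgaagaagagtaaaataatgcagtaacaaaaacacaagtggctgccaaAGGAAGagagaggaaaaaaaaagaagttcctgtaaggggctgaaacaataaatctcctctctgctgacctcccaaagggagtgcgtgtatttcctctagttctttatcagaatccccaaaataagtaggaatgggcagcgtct
Egfl7: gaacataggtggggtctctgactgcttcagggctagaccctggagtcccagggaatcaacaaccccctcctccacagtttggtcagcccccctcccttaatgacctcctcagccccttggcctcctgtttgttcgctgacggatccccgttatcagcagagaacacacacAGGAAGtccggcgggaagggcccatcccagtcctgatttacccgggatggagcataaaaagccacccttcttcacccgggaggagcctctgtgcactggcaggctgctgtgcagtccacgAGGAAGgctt

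Total estimated counts were 12960000 to 28080314 per library, with group medians of 16311297 to 21247615, and all replicate pairs differed by more than sampling noise. The recorded cell type of 66cl4 animals 5 and 6 contradicts their titles. Libraries were grouped by title, and Ptprc, which encodes CD45, exceeded its CD45- level 33.6 to 1932 times in the CD45+ library, as titled, of each of the 10 animals. In the CD45- libraries Ptprc was 0.0544 to 0.824% (66cl4) and 0.662 to 2.16% (67NR) of its mean in the CD45+ libraries of the same tumour. Levels are normalised counts, that is estimated counts divided by the size factor of DESeq2, and values are listed in the order of animals 3, 4, 5, 6 and 7 for 66cl4 and 1, 4, 5, 6 and 7 for 67NR.

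The first comparison asked how the non-immune cells of the 2 tumours differ. In CD45- cells, 8 of the 9 members tested were lower in 66cl4 than in 67NR tumours and none was higher, where called means an adjusted p-value under 0.05 in edgeR's quasi-likelihood test and an absolute log2 fold change over 1. Of all 14844 genes tested, 18.9% were called lower, 13.2% higher and 32.2% either way. These shares also stand beside the counts of the marker lists in CD45- cells below. Tek, Tie1, Egfl7, Esam and Cldn5 averaged 4.51 to 9.35 normalised counts in 66cl4. They passed the filter on low counts only through their 67NR levels, so that only a call as lower was open to them. Tie1, Egfl7, Pecam1, Tek and Esam were 8.73 to 10.7-fold lower, Cldn5 5.70-fold, Emcn 4.19-fold and Eng 2.15-fold. The exception among those tested was Cdh5, and Vwf had too few counts to be tested. The median log2 fold change of the 9 members was -3.13, against -0.01 over all genes tested. For the 8 called members every 66cl4 library lay below every 67NR library, as was the case for 27.1% of all genes tested, with 52.9% apart in either direction.

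**Figure D1:**
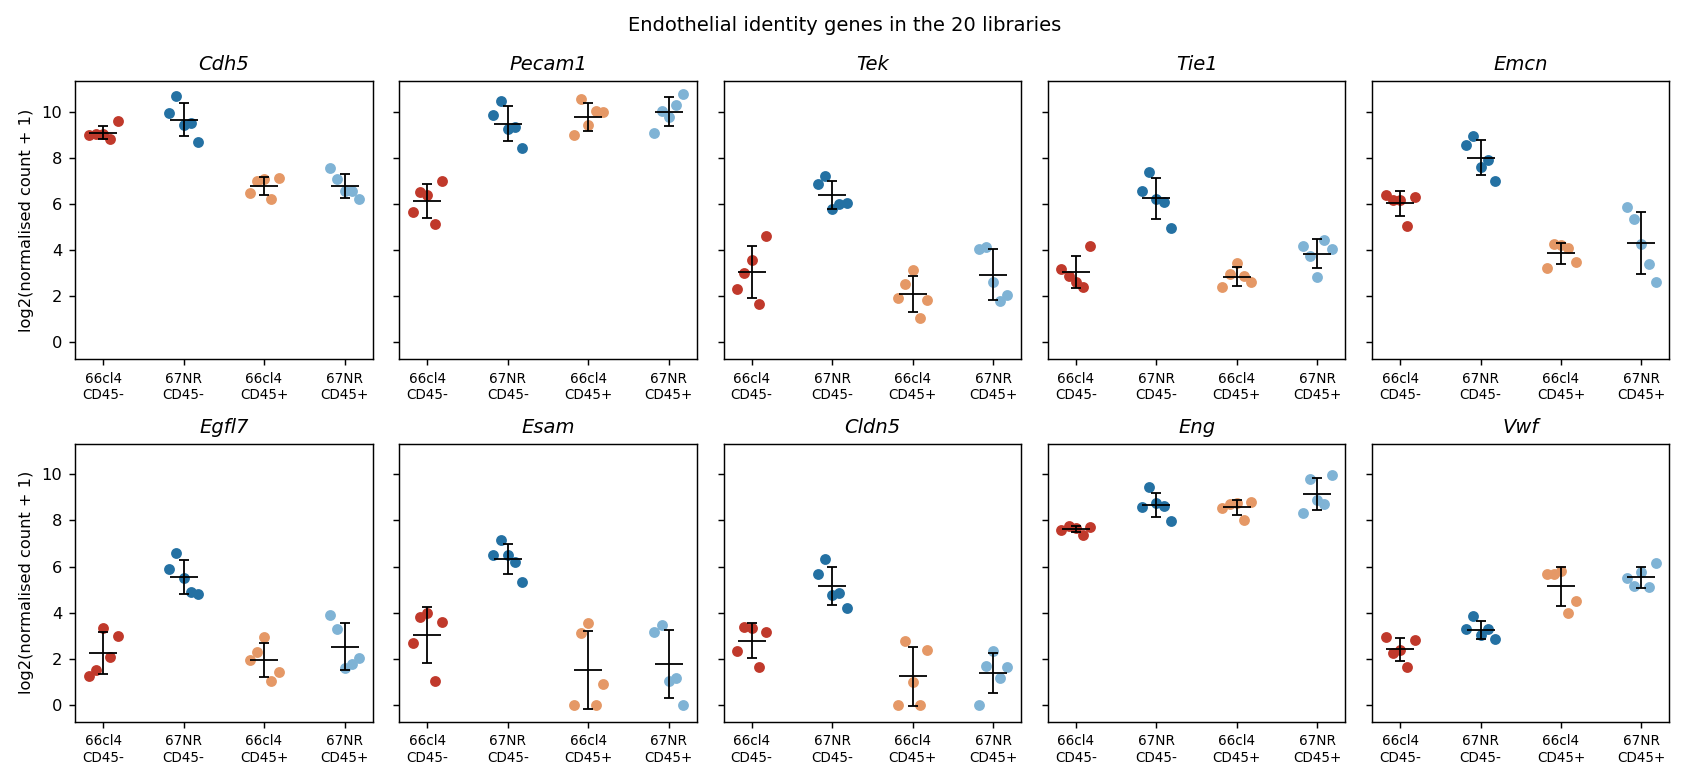
Levels of the 10 members, as log2(normalised count + 1) on the y axis, in the 4 groups on the x axis. Each point is a library, the bar is the mean and the whiskers are 1 SD (n = 5 per group). In CD45- cells the points of 66cl4 lie below those of 67NR for all members but Cdh5 and Vwf, where they overlap.

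Of the Tie receptors, Tie1, the partner of Tek, was measured at 7.96, 6.23, 4.99, 4.25 and 17.0 normalised counts in 66cl4 CD45- libraries and at 92.1, 166, 72.9, 67.2 and 29.7 in 67NR CD45- libraries. Its log2 fold change was -3.38 (SE 0.474), with an adjusted p of 2.96e-05 by edgeR's quasi-likelihood test. The highest 66cl4 library stayed under the lowest 67NR library, and both were of animals numbered 7. Tek was at 3.98, 6.86, 10.8, 2.12 and 23.0 in 66cl4 and at 114, 145, 53.6, 63.3 and 65.5 in 67NR (log2 fold change -3.18, SE 0.477, adjusted p = 6.05e-05 by edgeR). All 66cl4 values were again below the 67NR range, and animals 6 and 7 marked the ends of their spread. The ligands moved the same way: all 4 of the ligand list (Angpt1, Angpt2, Angpt4 and Svep1) were called lower in 66cl4, with a median log2 fold change of -2.60. Angpt1, the activating ligand of Tek, averaged 51.7 ± 12.5 (SD, n = 5) in 66cl4 and 596 ± 75.2 in 67NR (log2 fold change -3.51, SE 0.16), and Angpt4 fell by 5.17 on the log2 scale. Svep1, which is named here because its list is short, had a log2 fold change of -1.63.

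Among the junction genes Pecam1, an adhesion molecule of cell borders, was measured at 49.1, 89.8, 82.4, 34.0 and 125 normalised counts in 66cl4 CD45- libraries and at 935, 1428, 605, 656 and 345 in 67NR (log2 fold change -3.33, SE 0.444, adjusted p = 8.57e-05 by edgeR), so that the lowest 67NR library was above the highest 66cl4 library. Esam, an immunoglobulin-like adhesion molecule of tight junctions, averaged 9.09 ± 5.77 in 66cl4 and 86.0 ± 36.7 in 67NR (SD, n = 5 each), with a log2 fold change of -3.13 (SE 0.445). Cldn5, which seals the endothelial barrier, averaged 6.52 ± 3.27 and 40.1 ± 24.7 (log2 fold change -2.51, SE 0.462). Neither gene had overlapping groups. In 66cl4 the levels of both rested on few reads, at most 21 counts of Esam and 15 of Cldn5 in a library.

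Cdh5 behaved differently. Its levels were 515, 524, 528, 444 and 776 in 66cl4 CD45- libraries and 987, 1635, 692, 731 and 416 in 67NR CD45- libraries. The 2 groups overlapped, since 67NR animal 7 lay below all 66cl4 animals. The log2 fold change was -0.65 (SE 0.316) with an adjusted p of 0.0942 by edgeR, and over the alternative settings it ranged from -0.82 to -0.32 with adjusted p-values of 0.0155 to 0.409, so Cdh5 was not called in any of them: where p passed (0.0377 by DESeq2 and 0.0155 without 67NR animal 7), the fold did not. This does not show that Cdh5 is equal in both tumours.

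The difference between Cdh5 and its fellow markers was then taken within each library, where depth and normalisation cancel. The ratio of Cdh5 to Pecam1 was 5.84 to 13.1 (median 6.40) in the 5 66cl4 CD45- libraries and 1.06 to 1.21 (median 1.14) in the 5 67NR CD45- libraries. For Cdh5 to Tie1 the ratio was 45.7 to 106 in 66cl4 and 9.49 to 14.0 in 67NR. The mean log2 ratio was 2.81 higher in 66cl4 for Pecam1 and 2.83 higher for Tie1. These ratios were chosen after the values were seen and are given as a description, with no test. With the other members too, Cdh5 had a ratio in every 66cl4 CD45- library above the 67NR CD45- range for Tek, Emcn, Egfl7, Esam and Cldn5, whereas the ranges overlapped for Eng (2.41 to 3.75 and 1.58 to 2.58) and Vwf (77.6 to 209 and 67.8 to 121). In 67NR CD45- libraries the ratio of Cdh5 to Pecam1 was nearly constant between animals.

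**Figure D2:**
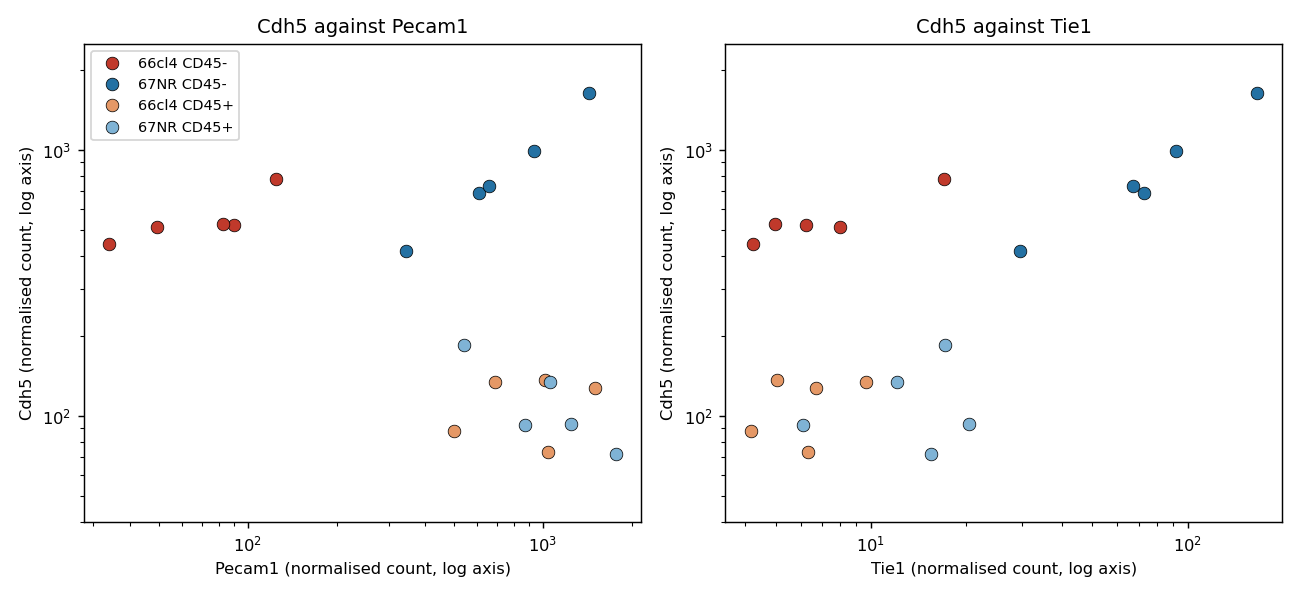
Normalised count of Cdh5 (y axis, log scale) against that of Pecam1 (left, x axis, log scale) and of Tie1 (right, x axis, log scale), 1 point per library, coloured by group. The 66cl4 CD45- libraries lie to the left of the 67NR CD45- libraries at heights that overlap, which is the Cdh5 to Pecam1 ratio of 5.84 to 13.1 against 1.06 to 1.21.

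Values of other cell types differed between the same CD45- groups. Of the 6 epithelial markers, Krt8 and Krt18, keratins of simple epithelium, were called higher in 66cl4 (log2 fold changes 6.47 and 4.32) and Epcam lower (-1.41). The summed level of the list was 6097 to 6848 in 66cl4 and 128 to 526 in 67NR CD45- libraries, and in 66cl4 it was almost all Krt8 and Krt18, with means of 5353 and 1149. The other markers, named after their values were seen, had lower means in 66cl4 and were not called: Krt19 averaged 22.7 against 59.96 in 67NR, Cdh1 20.8 against 32.9 and Krt7, which was not tested, 5.04 against 8.34. In the leukocyte list Itgb2, an integrin subunit of leukocytes, was called higher in 66cl4 CD45- cells (log2 fold change 3.92), while Ptprc and Laptm5 were called lower. Whether cells other than endothelial cells carry the Cdh5 reads of 66cl4 tumours was not tested.

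The partners of the junction proteins moved both ways. Of 8 cadherin and tight junction partners 7 were tested, with Tjp1 and F11r called higher in 66cl4 and Jam2 and Jup called lower, and a median log2 fold change of 0.35. Tjp1, the scaffold protein ZO-1, had the highest count of its list, at 14182 ± 1427 in 66cl4 and 5677 ± 1248 in 67NR (SD, n = 5 each). F11r, which encodes JAM-A, had a log2 fold change of 2.93 (SE 0.303) and Jam2, an endothelial JAM, one of -2.92 (SE 0.484). Plakoglobin (Jup), which links cadherins to the cytoskeleton, had a log2 fold change of -2.71.

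Eng, the co-receptor of the BMP9 pathway, was at 191, 218, 206, 167 and 207 normalised counts in 66cl4 CD45- libraries and at 383, 699, 438, 400.0 and 252 in 67NR (log2 fold change -1.10, SE 0.211, adjusted p = 0.000463 by edgeR). The groups did not overlap, and the 66cl4 animals lay close to each other. Without the 67NR CD45- library of animal 4, the highest of its group, the log2 fold change was -0.87 and Eng was no longer called, because it passed the test on p but not that on fold. Other genes of the pathway did not follow Eng: of 12 receptors, ligands, SMADs and targets 9 were tested, 4 were called higher in 66cl4 and 0 lower, at a median log2 fold change of 0.53. The called genes were the inhibitory SMADs Smad6 (128 ± 28.7 in 66cl4 and 31.3 ± 6.8 in 67NR, log2 fold change 2.06, SE 0.206) and Smad7 (1.28), the target Id1 (2.01) and the receptor Tgfbr2 (1.17), the latter named because the count is small. Bmpr2, with the highest count of the list, had 3534 ± 266 and 3317 ± 552, with a log2 fold change of 0.12 (SE 0.111). Gdf2, which encodes BMP9 itself, had no count in any library.

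Of the mucin and matrix genes, Emcn was at 82.3, 71.7, 70.8, 31.9 and 77.9 in 66cl4 and at 375, 498, 195, 237 and 128 in 67NR CD45- libraries (log2 fold change -2.07, SE 0.367, adjusted p = 0.000398 by edgeR). The groups were apart, with 66cl4 animal 6 well below the other 66cl4 animals. Egfl7 was at 1.33, 1.87, 9.16, 3.19 and 6.99 in 66cl4 and at 58.8, 94.5, 44.8, 28.9 and 26.6 in 67NR (log2 fold change -3.42, SE 0.496, adjusted p = 3.28e-05 by edgeR). It had the most negative fold change of the members, on at most 11 counts in a 66cl4 library. Its promoter window and those of Tie1 and Emcn are the ones printed above.

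Vwf was scarce in the CD45- gate, at 6.64, 3.74, 4.16, 2.12 and 5.99 in 66cl4 and at 8.77, 13.5, 7.02, 8.59 and 6.14 in 67NR. The groups overlapped between 66cl4 animal 3 and 67NR animal 7. Vwf failed the filter on low counts, and in the fit with no filter its log2 fold change was -0.91 (SE 0.474, adjusted p = 0.135 by edgeR). Of 7 other genes of endothelial storage granules and haemostasis 4 were tested: Thbd and Selp were called lower in 66cl4 and Tfpi and Procr higher. Thrombomodulin (Thbd), the anticoagulant receptor, stood out with 22.1 ± 10.3 in 66cl4 and 1654 ± 218 in 67NR (SD, n = 5 each), a log2 fold change of -6.15 (SE 0.243). Selp, the P-selectin of the granules that store Vwf, had a log2 fold change of -2.43, and Tfpi, an inhibitor of the tissue factor pathway, one of 1.42. Procr, the protein C receptor, named because the count is small, was at 1.08.

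Of 20 further endothelial genes 19 were tested. In 66cl4 CD45- cells 18 of them were called lower and 1 higher, against 18.9% and 13.2% of all 14844 genes tested. Their median log2 fold change was -3.59. Cd34, with the highest count, averaged 787 ± 142 in 66cl4 and 4050 ± 376 in 67NR (log2 fold change -2.33, SE 0.13). Clec14a, a C-type lectin of vessels, had the largest change at 3.96 ± 2.64 against 547 ± 34.0 (log2 fold change -7.14, SE 0.227), followed by Myct1 at -4.01 and Nos3, the endothelial nitric oxide synthase, at -3.95. Clec14a, Myct1 and Nos3 averaged 3.60 to 4.15 in 66cl4. They were among the genes that passed the filter only through their 67NR levels, so that only a call as lower was open to them. The gene called higher was Ecscr, named after its values were seen, a surface protein of endothelial cells, at 211 ± 46.0 in 66cl4 and 78.8 ± 16.2 in 67NR (log2 fold change 1.45, SE 0.18). Cd34 is known from fibroblast-like stromal cells too. Between 67NR CD45- libraries Clec14a spanned 494 to 579 and Cd34 3518 to 4429, while Myct1 spanned 28.6 to 119 and Pecam1 345 to 1428. Whether cells other than endothelial cells carry the reads of Clec14a was not tested.

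**Figure D3:**
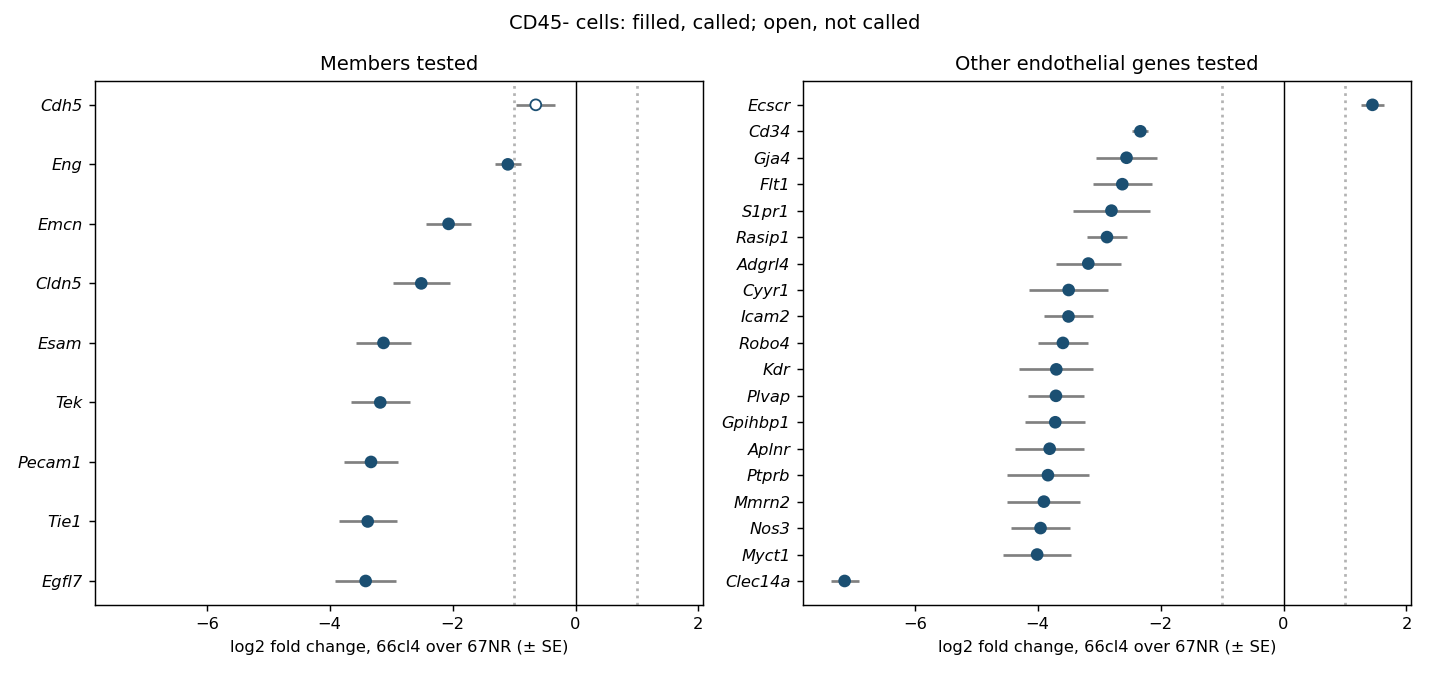
Log2 fold change of 66cl4 over 67NR in CD45- cells (x axis, whiskers 1 SE) for the 9 members tested (left) and 19 other endothelial genes tested (right), 1 gene per row. Filled points were called, and dotted lines mark an absolute log2 fold change of 1. Cdh5 is the open point at -0.65, and Ecscr is the single gene to the right of 0, at 1.45.

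Stromal markers moved with the endothelial genes in part. Of 11 mural cell markers 10 were tested, with 9 called lower in 66cl4 and 1, Pdgfrb, called higher, and the median of their log2 fold changes was -1.77. Pdgfrb, the receptor that recruits pericytes, had the highest count of its list, at 1853 ± 374 in 66cl4 and 735 ± 194 in 67NR, whereas Des, Myh11 and Abcc9 had log2 fold changes of -4.16, -2.02 and -1.97. Of 8 fibroblast markers 5 were called lower, at a median of -1.14, led by Dpt (-6.86), Fap (-3.44) and Lum (-1.40), while Pdgfra, with the highest count, was not called (0.62). Macrophage and neutrophil markers were also lower in the 66cl4 CD45- libraries where called (4 of 8 and 2 of 5 tested, among them Adgre1 at -2.45, C1qc at -1.88, C1qb at -1.77, Cxcr2 at -1.95 and Csf3r at -1.43). Mrc1, the macrophage mannose receptor, with the highest count of its list, had a log2 fold change of -1.37 and was not called. The summed level of the 8 macrophage markers was 178 to 1999 in 66cl4 and 1307 to 4600 in 67NR CD45- libraries. The ratio of Pecam1 to Ptprc was 0.596 to 4.63 (66cl4) and 1.94 to 4.55 (67NR) in CD45- libraries and 0.0244 to 0.0718 in CD45+ libraries. The part of leukocytes in the tumour difference of Pecam1 and Eng was not tested.

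Within a group, the members varied together between animals. Among 67NR CD45- libraries animal 4 was highest for all 10 members and animal 7 lowest for 9, Tek being the exception. In 66cl4 CD45- libraries animal 6 was lowest for 9 members, and animal 7 was highest for Cdh5, Pecam1, Tek and Tie1. As deviations from the group mean of log2 CPM over the 10 CD45- libraries, each member followed the mean of the other 9 with a Pearson r of 0.69 (Egfl7) to 0.97 (Pecam1) and a Spearman rho of 0.636 to 0.915. Cdh5, despite its different mean, had an r of 0.91 (rho 0.915). Without the 2 libraries farthest from the median, 67NR animals 4 and 7, r was 0.46 (Egfl7) to 0.96 (Pecam1). These libraries share a sort and a depth each, and the values are a description.

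**Figure D4:**
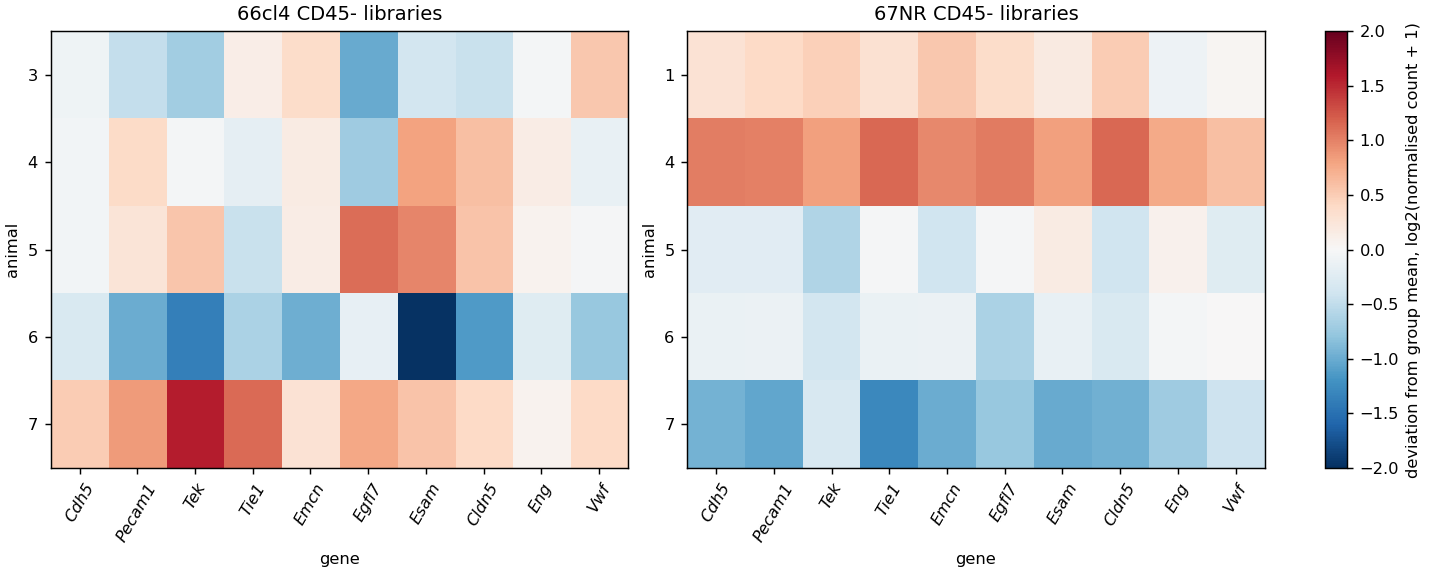
Deviation of each member (x axis) from the mean of its group in each CD45- library (y axis, animal number), on the log2(normalised count + 1) scale, with 66cl4 on the left and 67NR on the right. Red is above and blue is below the group mean. In 67NR the row of animal 4 is red and the row of animal 7 is blue for all members.

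The 8 genes outside the members whose deviations were most like the members' mean, of 11376 genes with at least 50 normalised counts on average, were Sparcl1, Mgll, Podxl, Sox18, Lama4, Rapgef5, Plvap and Aplnr, with r of 0.94 to 0.98 over the 10 CD45- libraries. All 8 were called lower in 66cl4, as were 18.9% of all 14844 genes tested, with log2 fold changes of -3.81 (Aplnr) to -1.93 (Sparcl1). The limit of 50 was on the mean over both CD45- groups, so these calls depend in part on it. Mgll, Podxl, Sox18, Rapgef5, Plvap and Aplnr averaged 9.55 to 19.2 in 66cl4 and passed the limit only through their 67NR levels. Sparcl1, the matricellular protein hevin, averaged 198 ± 64.6 in 66cl4 and 775 ± 365 in 67NR CD45- libraries. Podxl, a sialomucin of the luminal surface of vessels, averaged 15.9 ± 7.88 and 121 ± 67.1. Plvap, which forms the diaphragms of fenestrated capillaries, averaged 19.2 ± 11.4 and 262 ± 123, and Lama4, a laminin chain of the vessel basement membrane, 62.8 ± 22.7 and 278 ± 124. Sox18 and the receptor Aplnr were already in the lists of endothelial genes.

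Per transcript length, on the TPM scale, the order of the members differed between the tumours. In 66cl4 CD45- cells Cdh5 was highest at 12.5 ± 3.32 TPM (SD, n = 5), apart from Eng at 5.17 ± 0.709, which was apart from Emcn at 2.33 ± 0.76 and Pecam1 at 2.00 ± 0.994, whose ranges overlapped. In 67NR CD45- cells Pecam1 at 20.2 ± 11.8, Cdh5 at 19.6 ± 11.5, Eng at 11.1 ± 4.96 and Emcn at 9.67 ± 5.55 TPM led, and each overlapped with the next. Vwf was lowest in both, at 0.0464 ± 0.0195 and 0.0871 ± 0.0349 TPM, and separate from the member above it. In CD45+ cells Pecam1 led in both tumours at 24.7 ± 11.3 (66cl4) and 28.5 ± 13.9 TPM (67NR), followed by Eng at 10.2 ± 2.8 and 16.2 ± 8.69 and then Cdh5 at 2.54 ± 0.834 and 2.45 ± 0.71, with all others under 1 TPM on average.

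In the immune gate no member was called between the tumours. Of the 10 members 5 passed the filter in CD45+ cells (Cdh5, Pecam1, Emcn, Eng and Vwf) and 0 of them were called by edgeR, against 11.8% of all 14676 genes tested (5.01% higher and 6.82% lower in 66cl4). At an unadjusted p under 0.05 the count was 1, Eng, and DESeq2 called 0. The libraries of the 2 tumours overlapped for all 10 members, where 15.1% of all genes tested did not overlap (7.96% lower and 7.11% higher in 66cl4). Eng came nearest, at 371, 420.4, 430.0, 259.9 and 445 normalised counts in 66cl4 and 322, 891, 480, 419 and 1008 in 67NR CD45+ libraries (log2 fold change -0.67, SE 0.292, adjusted p = 0.124 by edgeR). Pecam1 was abundant in both, at 501, 1498, 687, 1038 and 1017 in 66cl4 and 542, 1056, 868, 1249 and 1766 in 67NR, with a log2 fold change of -0.18 (SE 0.325). Emcn had a log2 fold change of -0.87 with an SE of 0.576, Vwf one of -0.27 with an SE of 0.372 and Cdh5 one of -0.03 with an SE of 0.287, so for Emcn a difference over 2-fold is within 1 SE. Tie1 was left out by the filter, at 6.38 ± 2.08 in 66cl4 and 14.2 ± 5.44 in 67NR (SD, n = 5 each). It passed the filter and was called lower (log2 fold change -1.31, SE 0.362, adjusted p = 0.0325 by edgeR) once the 67NR CD45+ library of animal 5 was left out. Of the other endothelial genes 12 of 20 were tested in CD45+ cells, with 4 called lower in 66cl4 (Kdr, Clec14a, Cd34 and Aplnr) and 2 higher (S1pr1 and Rasip1), names given because the counts are small. Angpt1 and Angpt4 were called lower in this gate too, with log2 fold changes of -3.34 and -3.83.

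The tumour effect was then compared between the gates in 1 model of all 20 libraries. For 5 members it was more negative in CD45- than in CD45+ cells at an adjusted p under 0.05, which held for 21.9% of all 16453 genes tested (43.1% in either direction): Pecam1 by 3.15 log2 units (difference -3.15, SE 0.561, adjusted p = 0.000172 by edgeR), Esam (-3.24, SE 1.16), Cldn5 (-2.75, SE 1.03), Egfl7 (-2.63, SE 0.892) and Tie1 (-2.29, SE 0.654). For no member was it called more positive. For Cdh5 the difference was -0.65 (SE 0.434, adjusted p = 0.239 by edgeR), for Eng -0.43 (SE 0.398) and for Vwf -0.68 (SE 0.535). Tek (-2.11, SE 0.884, adjusted p = 0.0597) and Emcn (-1.25, SE 0.693, adjusted p = 0.151) were called when the animal was kept as a block, at adjusted p-values of 0.0112 and 0.0267 by edgeR, while Cldn5 was then not called. The count was 2 (Pecam1 and Cldn5) without 66cl4 animals 5 and 6, 3 (Pecam1, Tie1 and Egfl7) without a filter, and 2 (Pecam1 and Tie1) without the 66cl4 CD45+ library or the 67NR CD45- library of animal 4. It was 3 without the 66cl4 CD45- library of animal 3, the 66cl4 CD45+ library of animal 5 or the 67NR CD45+ library of animal 6. Pecam1 was called in each of these settings.

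The gates were compared within each tumour to ask which members belong to the CD45- fraction. These comparisons share their libraries with those between the tumours, and each gives its own values. In 67NR tumours all 10 members were tested, and 7 were called lower in CD45+ than in CD45- cells (19.6% of all 15063 genes tested were called lower) and 1, Vwf, higher (20.2%, and 39.8% either way). Tek, Tie1, Emcn, Egfl7, Esam and Cldn5 averaged 1.90 to 26.1 normalised counts in 67NR CD45+ libraries. They passed the filter only through their CD45- levels, so that only a call as lower was open to them. Esam was 22.1-fold lower in CD45+ cells (log2 fold change -4.47, SE 0.645), Cldn5 18.7-fold, Emcn 11.3-fold, Tek 10.5-fold, Egfl7 8.70-fold, Cdh5 7.74-fold and Tie1 6.07-fold. The libraries of the gates did not overlap for these 7 nor for Vwf, as for 55.5% of all genes tested (28.0% lower and 27.5% higher in CD45+ cells). In every 67NR animal the 7 genes were lower in its CD45+ than in its CD45- library. Pecam1 (log2 fold change 0.46, SE 0.364, adjusted p = 0.286 by edgeR) and Eng (0.52, SE 0.337, adjusted p = 0.192) were not called, and within animals the CD45+ level exceeded the CD45- level in 3 of 5 for Pecam1 and in 4 of 5 for Eng.

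In 66cl4 tumours 5 members were tested, of which Pecam1 and Vwf were called higher in CD45+ cells (23.9% of all 14916 genes tested) and Cdh5 and Emcn lower (20.5%, and 44.4% either way). Pecam1 was 12.2-fold higher in CD45+ than in CD45- cells (log2 fold change 3.60, SE 0.379, adjusted p = 3.72e-06 by edgeR), with 8.15 to 30.5-fold differences within the 5 animals. Cdh5 was measured at 87.6, 128, 134, 73.7 and 137 normalised counts in CD45+ libraries, a level close to the 186, 134, 92.5, 93.5 and 72.01 of 67NR CD45+ libraries. It was 5.03-fold lower than in 66cl4 CD45- cells (log2 fold change -2.33, SE 0.207, adjusted p = 5.21e-07 by edgeR) and lower in 5 of 5 animals. Emcn was 4.80-fold lower (log2 fold change -2.26, SE 0.306) and passed the filter only through its CD45- levels. Eng was higher in CD45+ cells in 5 of 5 animals with a log2 fold change of 0.94 (SE 0.153, adjusted p = 0.000118 by edgeR), which is under the fold threshold, and leaving out animal 3 or 6 of the CD45+ group took it past that threshold, to 1.05 in the latter case. The libraries of the gates were apart for these 5 members, as they were for 61.4% of all genes tested (31.4% higher and 30.0% lower in CD45+ cells). Tek, Tie1, Egfl7, Esam and Cldn5 did not pass the filter in 66cl4, and both gates overlapped: Tek averaged 3.77 ± 2.57 in CD45+ and 9.35 ± 8.29 in CD45- cells, and Tie1 6.38 ± 2.08 and 8.08 ± 5.16 (SD, n = 5 each). Esam and Cldn5 had a count of 0 in the 66cl4 CD45+ libraries of animals 3 and 6, where a count of 0 allows up to 3 counts.

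**Figure D5:**
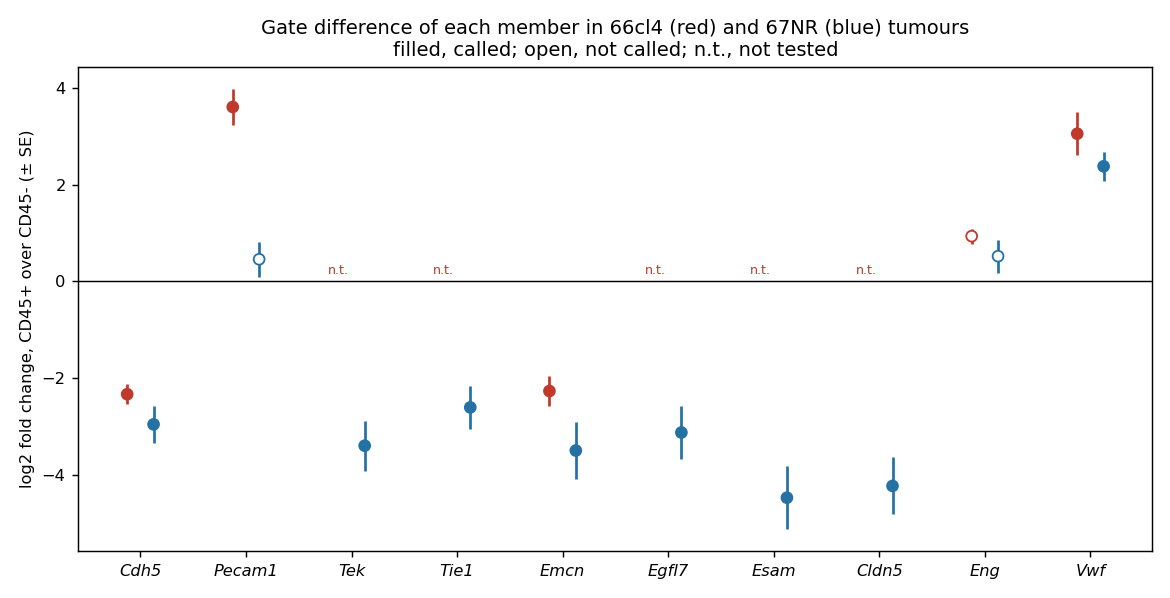
Log2 fold change of CD45+ over CD45- cells (y axis, whiskers 1 SE) for each member (x axis), with 66cl4 in red and 67NR in blue. Filled points were called, open points were not and n.t. marks members not tested. Pecam1 is at 3.60 in 66cl4 and 0.46 in 67NR, and Vwf is above 0 in both.

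Vwf was the member called higher in CD45+ than in CD45- cells in both tumours, while Pecam1 and Eng had higher means in CD45+ cells in both but were not called in both. It was at 50.1, 50.6, 55.0, 14.7 and 22.0 normalised counts in 66cl4 CD45+ libraries and at 43.7, 34.1, 52.8, 33.6 and 70.0 in 67NR CD45+ libraries. All of these exceeded the highest CD45- library, at 13.5. In both gate comparisons Vwf passed the filter only through its CD45+ levels, so that only a call as higher was open to it. The log2 fold changes over CD45- cells were 3.05 (SE 0.443, adjusted p = 4.35e-05 by edgeR) in 66cl4 and 2.38 (SE 0.298, adjusted p = 2.89e-05) in 67NR. Within animals the CD45+ level was 2.52 to 13.5 times the CD45- level, so that all 10 animals had it higher in CD45+ cells. Platelet markers lay beside it: the summed level of 10 of them was 4741 to 11943 in 66cl4 and 2895 to 6545 in 67NR CD45+ libraries, against 43.8 to 244 and 185 to 559 in CD45- libraries. That sum was mostly Pf4, a platelet chemokine, at 7307 ± 2314 and 3729 ± 1129 in CD45+ cells, and Gp1bb, a platelet receptor subunit, had no count in the 66cl4 libraries of either gate. Itga2b, the platelet integrin subunit, was not higher in CD45+ cells, with log2 fold changes of -0.25 (66cl4, not called) and -1.36 (67NR, called lower). Between the CD45- groups Itga2b and Ppbp were called lower in 66cl4 (-2.08 and -1.98) and Pf4 was not (-1.10). The part of platelets in the Vwf levels was not tested.

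The members were also set beside stromal markers in the CD45+ libraries. Among members with a mean of at least 10 normalised counts in 67NR CD45- cells, the mean level in CD45+ cells was 4.63 to 144% of that in CD45- cells, with a median of 11.97% over 9 genes. In 66cl4 tumours 4 members reached that mean (Cdh5, Pecam1, Emcn and Eng), and they were at 20.1 to 1248% with a median of 107.9%. The 8 fibroblast markers were at 5.41 to 46.9% (median 10.98%) in 67NR and 4.03 to 122% (median 7.75%) in 66cl4 tumours, and the mural markers at 2.84 to 36.0% (median 7.92%) in 67NR and 5.60 to 345% (median 17.1%) in 66cl4 tumours. The median of the members was near those of the stromal lists in 67NR and above both of them in 66cl4 tumours. No member was near that 66cl4 median: Cdh5 and Emcn lay near the mural median, and Eng and Pecam1 lay far above it. These 2 medians of the members rest on different sets of genes and cannot be compared between the tumours. Cdh5, Pecam1, Emcn and Eng were at 12.9, 138, 9.10 and 144% in 67NR and at 20.1, 1248, 20.9 and 195% in 66cl4. Whether the reads of the members in CD45+ libraries come from CD45- cells left in that gate was not tested.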

How the data were processed

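RNA of cells sorted by CD45 from 5 66cl4 and 5 67NR tumours was sequenced as 20 libraries (SENSE mRNA kit). The authors trimmed reads, quantified transcripts with Salmon 1.3.0 and summed them to genes with tximport, and the deposited values are estimated counts with no normalisation. The submitters' notes name GRCh38, a human build, while the identifiers are of mouse. Symbols were matched for 51492 of 52783 identifiers.

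Estimated counts were rounded. Groups were compared in R 4.3.3 with edgeR 4.0.16 (TMM, filterByExpr, robust quasi-likelihood fit, Benjamini-Hochberg adjustment over all genes tested). The filter required both its minimum of 10 counts in enough libraries and 15 counts in total. Calls needed an adjusted p-value below 0.05 and, except for the interaction, a log2 fold change beyond 1 in size. Levels are counts over size factors of DESeq2 1.42.0. TPM used the longest transcript of each gene in a mouse reference, which gave no length for 1291 genes (2.58% of counts). Likeness used log2 CPM with a prior count of 2. Levels and ratios were computed in Python 3.11.15. The fits were first run on simulated data with known changes.

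Named genes are the members and, of each marker list (other endothelial, endothelial transcription factors, Tie ligands, endoglin pathway, junction partners, storage and haemostasis, vessel subtype, lymphatic, mural, fibroblast, epithelial, leukocyte, macrophage, neutrophil, platelet), the gene with the highest count and up to 3 called genes with the largest fold change in CD45- cells, then the 8 likest genes and Ptprc. Others were named after their values were seen. The members and lists were chosen with earlier results of these data known. Both gates of an animal carry its number, which pairs them: their deviations from group means correlated at 0.0242 to 0.148 in 66cl4 and at -0.00308 to 0.324 in 67NR. Between tumours libraries share only a number. Depth was 12960000 to 28080314 counts per library. The p-values rest on the spread between animals. Alternatives were DESeq2, RLE factors, total counts as library sizes, no filter, a filter of 10 counts in at least 5 libraries, one fit over all 20 libraries, a block for the animal, fits that omit 66cl4 animals 5 and 6 or each library, and CPM or TPM for levels.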

Additional observations from a re-analysis of the deposited data

Results flagged for a closer look

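Of 44 groups of 5 libraries (10 members and the total count in each of 4 groups), 3 held a library far from the other 4 by Dixon's test, where chance gives about 2.2. Cdh5 was highest in 66cl4 CD45- animal 7, at 776 normalised counts against 444 to 528 in the others. Emcn was lowest in 66cl4 CD45- animal 6, at 31.9 against 70.8 to 82.3. The total estimated count was lowest in 67NR CD45- animal 7, at 16917109 against 21199064 to 22180348 in the others. That library was also the lowest of its group for 9 members after scaling, and the part of its depth in this was not tested.

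The tumour effect (66cl4 over 67NR) differed between the gates for 5 members by the interaction test of edgeR. It did so for 43.1% of all 16453 genes tested, being more negative in CD45- cells for 21.9%. Its value in CD45- minus that in CD45+ cells was -3.15 for Pecam1, -2.29 for Tie1, -2.63 for Egfl7, -3.24 for Esam and -2.75 for Cldn5 on the log2 scale. In CD45+ cells the means of Tie1, Egfl7, Esam and Cldn5 were 1.90 to 14.2 normalised counts, so that their part of the difference rests on few reads. Pecam1 was well counted in both gates.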

How the results depend on the processing

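The calls in CD45- cells and between the gates were stable under the settings run: the counts of members called were 7 to 8 lower in 66cl4 CD45- cells and 2 to 3 higher in 66cl4 CD45+ cells when libraries were left out in turn, and the others did not move. Eng accounts for both changes. In CD45+ cells the count of members lower in 66cl4 was 0 to 1 when single libraries were left out, being 1 (Tie1) without 67NR animal 5. The interaction count, 5, was 3 without a filter, 2 without 66cl4 animals 5 and 6, and 2 to 6 when single libraries were left out. Apart from the interaction, no count of called members changed without 66cl4 animals 5 and 6. Few reads of Tek, Egfl7, Esam and Cldn5 in CD45+ cells limit the precision.

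Directions reversed for uncalled members of the CD45+ comparison: Cdh5 had a log2 fold change of 0.029 without 66cl4 animals 5 and 6, and of -0.18 to 0.19 when single libraries were left out, being above 0 without 66cl4 animal 3 (0.03) or 6 (0.09) or 67NR animal 1 (0.19) or 4 (0.03). Pecam1 ranged from -0.41 to 0.032, above 0 without 67NR animal 7. With the animal number as a replicate block, Cdh5 was at 0.29 and Emcn at 0.041. The cause was not tested. Between gates of the same animals the block changed no call of the 2 gate comparisons, and it changed those of Tek, Emcn and Cldn5 in the interaction, where 6 members were called. Across tumours, where only the number is shared, it left the counts of called members at 8 (CD45-) and 0 (CD45+).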

Other observations

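Most endothelial transcription factors followed the members in CD45- cells. Of 12 factors 11 were tested, 8 were called lower in 66cl4 and 1 higher, against 18.9% and 13.2% of all 14844 genes tested. The median of their log2 fold changes was -2.73. Erg averaged 2.64 ± 0.588 normalised counts in 66cl4 and 37.6 ± 22.8 in 67NR (log2 fold change -3.72, SE 0.493), Tal1 had a log2 fold change of -3.72 and Sox18 one of -3.46. The factor called higher was Klf2, named after its values were seen, at 1.85. Klf4 had the highest count, at 4461 ± 1295 and 6252 ± 2569, and was not called (log2 fold change -0.45, SE 0.268).

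Genes of vessel subtypes moved both ways. Of 10 genes of tip, arterial and venous endothelium 8 were tested, with 6 called lower in 66cl4 CD45- cells and 1 higher. Esm1, a tip cell gene, had a log2 fold change of -3.82 and the Notch ligand Dll4 one of -3.19, while the arterial ephrin Efnb2, with the highest count, was called higher at 1413 ± 250 against 283 ± 42.7 (log2 fold change 2.35, SE 0.141). Of 7 lymphatic markers 3 were tested, with Pdpn (1513 ± 95.4 against 7567 ± 711, log2 fold change -2.29) and Flt4 (-3.64) called lower. Lyve1, named after its values were seen, was not called (log2 fold change 1.53, SE 0.957), at 63.3 ± 96.7 in 66cl4 and 22.5 ± 9.20 in 67NR CD45- libraries, which overlapped. Prox1 and Ccl21a, named after their values were seen, had too few counts to be tested.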
